A study of Mus musculus with 2 samples.

Results

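The 49 genes described here encode lysosomal hydrolases, lysosomal membrane proteins and subunits of the vacuolar-type proton ATPase (V-ATPase). They were chosen by gene symbol from textbook function, by a rule that uses no measured value though with earlier results of these data known, and all 49 symbols were found among the 21829 genes measured. Expression was measured by RNA sequencing in C2C12, an immortalised line of mouse myoblasts. A single library came from unedited cells (WT) and a single library from cells edited with CRISPR–Cas9 in exon 2 of Gne (labelled GNE KO), the gene of the bifunctional enzyme that starts sialic acid synthesis. Both lines were grown in DMEM with fetal bovine serum and gentamicin, and the labels give no treatment. Edited cells were sparsely seeded and single clones were picked and expanded, and which clone was sequenced is not given in the sources used here. A difference between a clone and its parental line that has other origins cannot be told apart from the edit.

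Lysosomes degrade the cargo that autophagosomes and endosomes deliver. Soluble hydrolases are made in the ER, tagged with mannose 6-phosphate and carried to the lysosome by dedicated receptors, where they work at the low pH that the V-ATPase maintains. The V-ATPase consists of a membrane-embedded V0 sector that passes protons and a peripheral V1 sector that hydrolyses ATP. Many of these genes carry the E-box-like CLEAR element near their start, which is bound by TFEB, TFE3 and MITF, transcription factors that mTORC1 keeps in the cytoplasm when nutrients are plentiful. In muscle, loss of the acid glucosidase GAA causes Pompe disease and loss of LAMP2 causes Danon disease, both of which are vacuolar myopathies.

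CLEAR-like sequences near the starts of some of these genes are printed because this element is known from lysosomal genes and is held by a minority of the members. RefSeq promoter sequences on GRCm38.p6, reaching from 250 bases before the annotated start to 50 bases after it, were found for 42 of the 49 genes. Each was searched for the core E-box CACGTG and for the 8-letter form TCACGTGA, which contains the core, and both read alike on either strand. A gene was counted if any of its annotated starts held the letters. The core was present in 16 of the 42 genes (38.1%), against 8.09% of the 27025 symbols with a promoter sequence. The 8-letter form was present in 8 of the 42 (19.0%), against 1.12% of all symbols. Among the other lysosomal genes described below, 97 had a promoter sequence. Of these 97, 20 (20.6%) held the core and 10 (10.3%) the 8-letter form.

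The following 8 stretches show the 8-letter form, in capitals, with 10 bases on either side, on the strand of the gene and 5′ to 3′. Ctsa and Gla each held a second copy that is not shown.
Ctsa (chr2:164833750-164833777, plus strand): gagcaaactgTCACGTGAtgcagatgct
Ctsd (chr7:142387909-142387936, minus strand): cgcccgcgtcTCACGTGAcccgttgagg
Mcoln1 (chr8:3500463-3500490, plus strand): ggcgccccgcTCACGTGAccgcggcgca
Gla (chrX:134601216-134601243, minus strand): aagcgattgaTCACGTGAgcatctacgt
Cln3 (chr7:126583341-126583368, minus strand): acgggtactgTCACGTGAcccccaacct
Atp6v0d1 (chr8:105566051-105566078, minus strand): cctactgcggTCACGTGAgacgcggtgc
Atp6v0e (chr17:26676388-26676415, plus strand): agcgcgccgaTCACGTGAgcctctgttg
Atp6v1a (chr16:44139374-44139401, minus strand): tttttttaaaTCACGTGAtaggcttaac

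Cln3 and Lamp1 are shown over a longer stretch, with each CACGTG in capitals. For Cln3, the only member more than 2-fold lower in the KO-labelled library, the 250 bases before a start are given, and the motifs begin 149 and 121 bases before that start. Lamp1, which had the highest level among the members with CACGTG, held 4 of them, beginning 61, 45, 28 and 15 bases before its start, and the stretch from 75 to 31 bases before the start shows the first and the second.
Cln3 (chr7:126583237-126583486, minus strand): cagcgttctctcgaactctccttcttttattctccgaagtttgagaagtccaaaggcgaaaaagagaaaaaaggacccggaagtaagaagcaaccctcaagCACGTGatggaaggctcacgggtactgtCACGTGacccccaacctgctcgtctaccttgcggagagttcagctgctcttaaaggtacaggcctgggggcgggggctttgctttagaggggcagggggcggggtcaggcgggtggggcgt
Lamp1 (chr8:13159086-13159130, plus strand): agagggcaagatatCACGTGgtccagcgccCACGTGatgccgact

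Values are FPKM (fragments scaled by transcript length and by library size), a unit inferred from the deposited tables, and levels of different genes are compared only on this length-corrected scale. Fold changes are log2((KO + 1)/(WT + 1)), which understates the change of genes near 0. A gene passed the filter if its mean over both libraries was at least 1 FPKM, as 10542 genes did. With 1 library per line there is no replicate check and no test, so a difference is set beside the spread over all genes past the filter, and "more than 2-fold" describes a size only. The number of reads behind the values is unknown. Gne, the edited gene, stood at 6.67 FPKM in WT and at 7.34 FPKM in the KO-labelled library, so its RNA level does not tell which library carries the edit, and directions below follow the labels. Of the myoblast markers, Myod1 was listed at 59.97 and 0 FPKM and Des at 97.6 and 3.84 FPKM in the WT and KO-labelled library, whereas Myf5 was at 9.14 and 20.3 FPKM.

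Lysosomal RNA as a whole was nearly the same in both libraries. The 49 genes summed to 4745 FPKM in WT and 5121 FPKM in the KO-labelled library, a difference of 7.92%, and took 0.835% and 0.892% of all FPKM. Of the 49 genes, 45 passed the filter, and their median log2 fold change was 0.10, against 0.0061 for all genes past the filter. A higher value in the KO-labelled library was found for 29 of the 45 genes (64.4%), against 50.7% of all genes past the filter, and 16 were lower. Just as many, 29 (64.4%), lay within 1.25-fold of WT, against 65.2% of all genes. More than 2-fold differences were seen for 3 genes. Ctsh and Ctso were higher, 2 of 45 against 2.84% of all genes, and Cln3 was lower, 1 of 45 against 3.43% of all genes. Ctsh and Ctso were below 1 FPKM in WT and passed the filter only through the KO-labelled library. At 1.5-fold the numbers were 4 higher, with Ctsl and Gaa added, against 7.68% of all genes, and 1 lower, against 7.5%. As shares of the members these are 4.44% higher and 2.22% lower at 2-fold, and 8.89% higher and 2.22% lower at 1.5-fold. They lie near those of all genes, except that fewer members were lower at 1.5-fold. With a pseudocount of 5 no member was beyond 2-fold, against 0.968% of all genes higher and 1.67% lower, and the same held when a mean of 5 FPKM was required, against 1.69% and 2.58%.

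**Figure D1:**
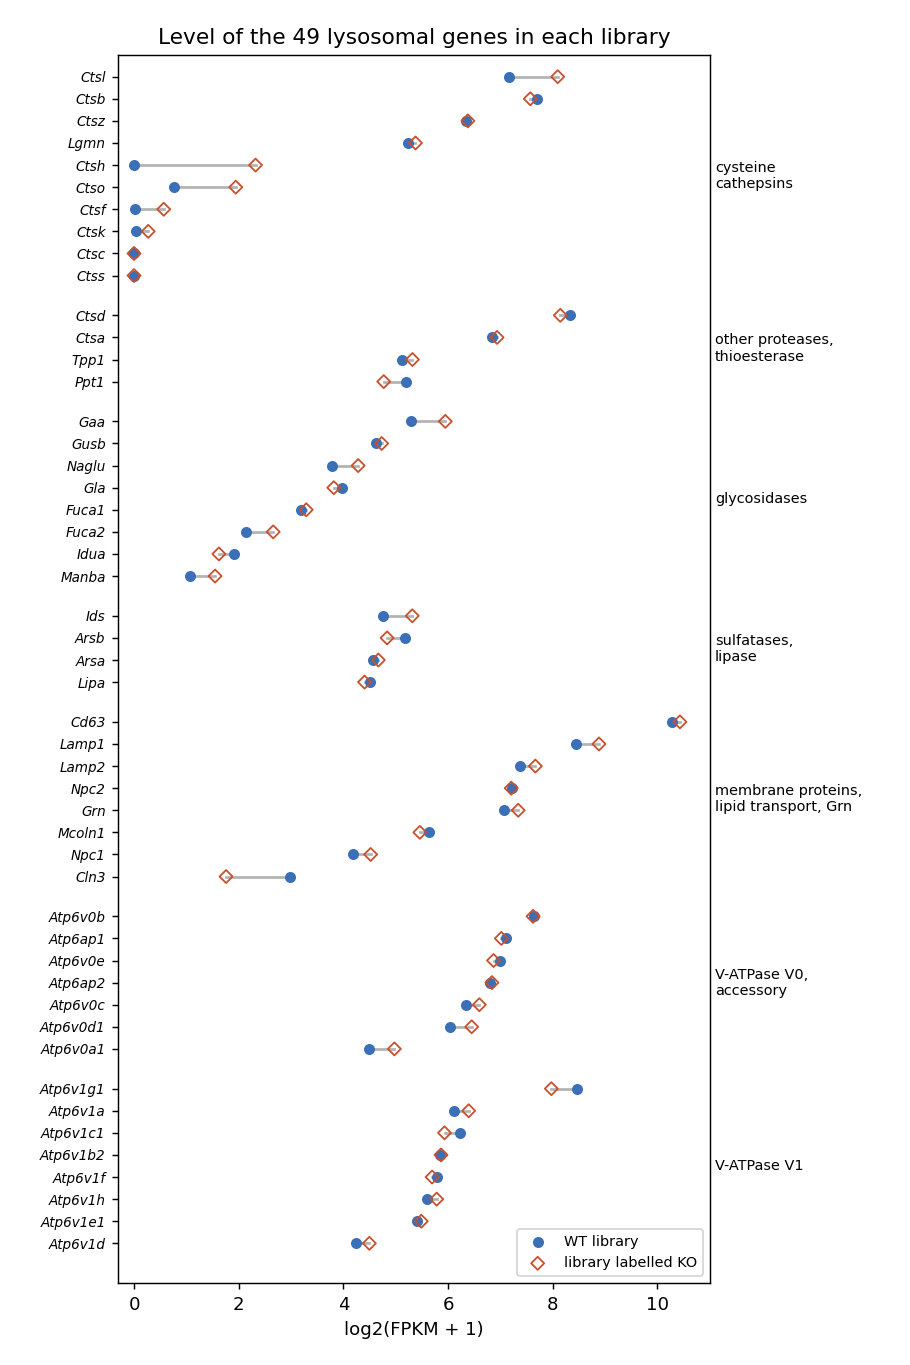
Level of each of the 49 genes as log2(FPKM + 1) on the horizontal axis, grouped by role and ordered by mean level, with filled circles for the WT library and open diamonds for the KO-labelled library. Most pairs of points nearly coincide; the longest gaps belong to Ctsh, Ctso, Cln3 and Ctsl, and Ctsc and Ctss sit at 0 in both libraries.

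The members differed far more in level than between the libraries. Cd63, a tetraspanin of late endosomes, lysosomes and exosomes, had the highest level, 1246 FPKM in WT and 1378 FPKM in the KO-labelled library, and ranked 60th of all genes in WT. It made up 26.3% of the summed level of the members in WT and 26.9% in the KO-labelled library. At the other end, Ctsc and Ctss were listed at 0 in both libraries. These encode the dipeptidyl peptidase that activates granule proteases of leukocytes and the cathepsin of antigen-presenting cells. Ctsk, the collagen-degrading cathepsin of osteoclasts, was at 0.026 and 0.207 FPKM, and Ctsf at 0.020 and 0.482 FPKM. These 4 genes are the members that did not pass the filter. Of 12 macrophage markers, 1 passed the filter, Cd14, at 19.6 FPKM in WT and 18.4 FPKM in the KO-labelled library, and Ptprc, Adgre1, Itgam and Tyrobp were listed at 0 in both libraries. Of 8 osteoclast markers, 2 passed, and the list summed to 18.8 FPKM in WT and 14.2 FPKM in the KO-labelled library.

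Among the cysteine proteases, Ctsl stood out by the amount of RNA involved. Cathepsin L, an endopeptidase of broad specificity, had 143 FPKM in WT and 272 FPKM in the KO-labelled library. That is a ratio of 1.90 and a log2 fold change of 0.92, just under 2-fold, and lies at percentile 96.8 of all genes past the filter. A processed pseudogene, Gm49230, overlaps Ctsl on the same strand, and how reads were shared with it is not known. Ctsb, which encodes cathepsin B, a peptidase with both endo- and exopeptidase activity, went the other way by little, with 206 FPKM in WT and 189 FPKM in the KO-labelled library. The ratio of Ctsl to Ctsb was therefore 0.695 in WT and 1.44 in the KO-labelled library, a change in which transcript was the more abundant of the pair. Ctsl made up 30.7% of the summed RNA of the 10 cysteine protease genes in WT and 46.0% in the KO-labelled library. The sum of these 10 genes was 467 FPKM in WT and 592 FPKM in the KO-labelled library, 26.6% more, and without Ctsl it was 324 and 319 FPKM.

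Both members more than 2-fold higher also belong to this class, and both had low levels. Each passed the filter only through its value in the KO-labelled library, so that their being counted depends on the library in which they are high. Ctsh, which encodes the aminopeptidase cathepsin H, was listed at 0 in WT and at 4.00 FPKM in the KO-labelled library. Without counts a fold cannot be given for a gene listed at 0, and its log2 fold change of 2.32 is set by the pseudocount. Ctso, which encodes cathepsin O, was at 0.690 FPKM in WT and 2.85 FPKM in the KO-labelled library, a log2 fold change of 1.19. It overlaps Tdo2 on the opposite strand, which was listed at 0 in both libraries. Ctsz, the carboxypeptidase cathepsin Z, was at 80.6 FPKM in WT and 82.2 FPKM in the KO-labelled library. Lgmn, which encodes the asparaginyl endopeptidase legumain that processes other cathepsins, was at 36.5 and 40.6 FPKM. For these, as for Ctsb, the 2 libraries differed by less than 1.25-fold.

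The 3 other proteases and the thioesterase differed by less than 1.5-fold. Ctsd, the gene of the aspartic protease cathepsin D, had 322 FPKM in WT and 282 FPKM in the KO-labelled library. The protein-coding gene Gm49369 overlaps Ctsd on the same strand, and how reads were split between them is not known. Ctsa, whose product protects neuraminidase and beta-galactosidase, had 113 and 121 FPKM. The serine protease gene Tpp1 stood at 33.8 and 38.9 FPKM. Ppt1, which encodes a thioesterase that removes palmitate from proteins, was the lowest of this group relative to WT, at 35.6 FPKM in WT and 26.3 FPKM in the KO-labelled library, a log2 fold change of -0.42. The summed level of the 4 genes was 505 FPKM in WT and 469 FPKM in the KO-labelled library.

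Of the 8 glycosidase genes, 6 were higher in the KO-labelled library and 2 were lower, none by more than 2-fold, where 50.7% of all genes past the filter were higher. Their median log2 fold change was 0.30, which became 0.14 with a pseudocount of 5 and 0.11 among those with a mean of 5 FPKM or more. Gaa, the acid alpha-glucosidase that breaks down glycogen in the lysosome, had 38.4 FPKM in WT and 60.7 FPKM in the KO-labelled library, a ratio of 1.58. Naglu, which acts on heparan sulfate, had 12.8 and 18.5 FPKM, a log2 fold change of 0.50. The fucosidase gene Fuca2 had 3.41 and 5.32 FPKM, a log2 fold change of 0.52, whereas its paralog Fuca1 had 8.10 and 8.78 FPKM. Manba, encoding beta-mannosidase, was close to the filter at 1.09 and 1.925 FPKM. Gusb, the beta-glucuronidase gene, had 23.6 and 25.6 FPKM. Lower values were found for Gla, encoding alpha-galactosidase A, at 14.7 and 13.1 FPKM, and for Idua, encoding alpha-L-iduronidase, at 2.75 and 2.08 FPKM. The sum of the 8 genes was 105 FPKM in WT and 136 FPKM in the KO-labelled library, 29.6% more, and 13.2% more without Gaa.

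The sulfatases and the acid lipase were split. Ids, which removes sulfate from heparan and dermatan sulfate, had 26.1 FPKM in WT and 38.8 FPKM in the KO-labelled library, a log2 fold change of 0.56. Arsb, which acts on dermatan and chondroitin sulfate, had 35.1 and 27.5 FPKM, a log2 fold change of -0.34. For Ids and Idua, whose products act one after the other on the same glycosaminoglycans, the differences thus had opposite signs. That of Idua was small, 2.75 against 2.08 FPKM, and within 1.25-fold on the log2 scale used here. Arsa, the sulfatide sulfatase gene, had 22.8 and 24.4 FPKM, and Lipa, the gene of lysosomal acid lipase, had 21.8 and 20.2 FPKM.

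The lysosomal membrane proteins included the single member that was more than 2-fold lower. Cln3, a multi-spanning membrane protein that is mutated in juvenile neuronal ceroid lipofuscinosis, had 6.86 FPKM in WT and 2.38 FPKM in the KO-labelled library. Its log2 fold change was -1.22, at percentile 2.49 of all genes past the filter, and its level was among the lower ones of the members. Cln3 overlaps Apobr on the opposite strand, and Apobr had 1.89 FPKM in WT and 0.630 FPKM in the KO-labelled library. The library kits named for this study keep strand, but whether counting used it is not given in the sources used here, so reads of the pair may not be told apart. The part of Apobr in the value of Cln3 was not tested.

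The abundant membrane glycoproteins pointed the other way. Lamp1 had 347 FPKM in WT and 471 FPKM in the KO-labelled library, a log2 fold change of 0.44. Lamp2, whose splice form LAMP2A serves chaperone-mediated autophagy, had 164 and 202 FPKM, and splice forms cannot be separated in values given per gene. LAMP1 and LAMP2 together form much of the glycocalyx that lines the lysosomal membrane. The cholesterol exporter gene Npc1 was at 17.2 and 21.95 FPKM, while Npc2, its soluble partner that hands cholesterol over, was at 148 and 147 FPKM. Grn, encoding progranulin, a secreted and lysosomal glycoprotein, had 133 FPKM in WT and 161 FPKM in the KO-labelled library. Mcoln1, the calcium channel that signals to TFEB, had 48.9 and 43.0 FPKM. None of these 6 genes differed by more than 1.5-fold.

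**Figure D2:**
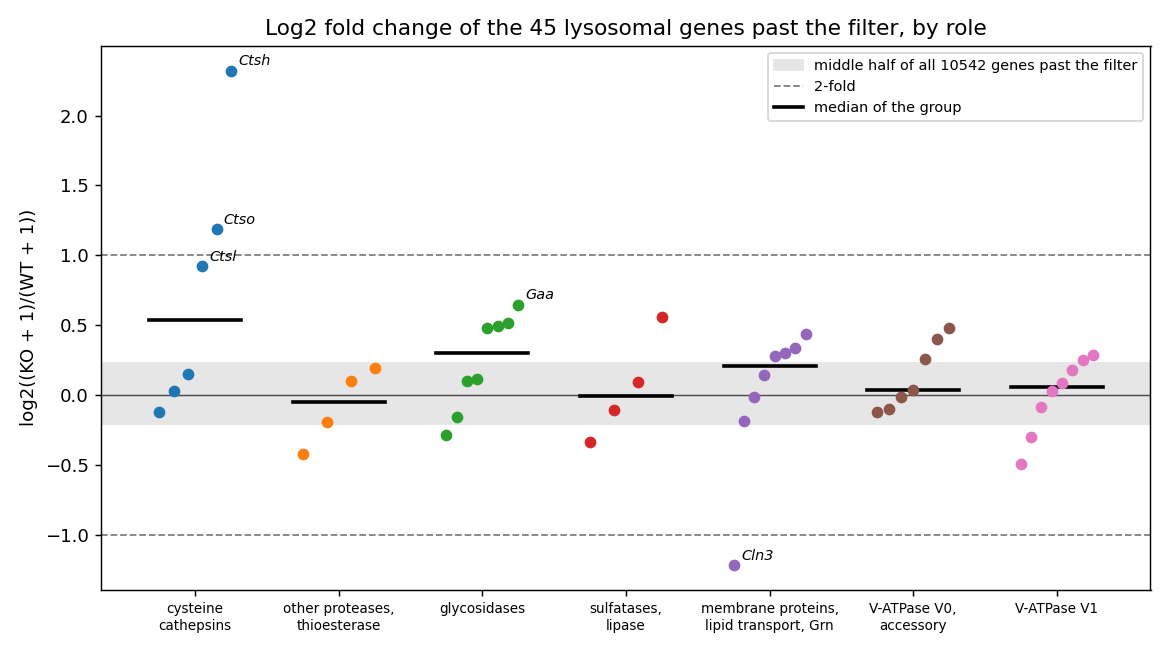
Log2 fold change of the 45 genes past the filter on the vertical axis, grouped by role, with a bar at each group's median, dashed lines at 2-fold and a grey band from -0.21 to 0.23 for the interquartile range of all 10542 genes past the filter. Ctsh and Ctso lie above and Cln3 below the 2-fold lines, and the V-ATPase genes lie between -0.50 and 0.48.

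Little separated the libraries in the V-ATPase. None of its 15 genes, which include the accessory proteins Atp6ap1 and Atp6ap2, differed by more than 1.5-fold. The V0 and accessory genes summed to 739 FPKM in WT and 767 FPKM in the KO-labelled library, with a median log2 fold change of 0.04. Within V0, Atp6v0a1, one of the alternative a subunits that direct the pump to membranes, had 21.5 and 30.4 FPKM, a log2 fold change of 0.48. Atp6v0d1, the d subunit that couples the sectors, had 65.1 and 86.5 FPKM, a log2 fold change of 0.40. The proteolipid ring gene Atp6v0c had 79.7 and 95.8 FPKM, and the related Atp6v0b had 198 and 196 FPKM. Atp6ap2, also known as the prorenin receptor, had 110.4 and 113 FPKM, Atp6ap1 had 138 and 129 FPKM, and Atp6v0e had 126 and 116 FPKM. Pseudogenes of Atp6v0c and of Cd63 are annotated, and how reads were shared with them is not known.

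In the V1 sector, a single gene set the direction of the sum. Atp6v1g1, a subunit of the peripheral stalk, had 353 FPKM in WT and 250.3 FPKM in the KO-labelled library, a log2 fold change of -0.50. Its level was 6.53 times the median of the other V1 genes in WT and 4.63 times in the KO-labelled library. The 8 V1 genes summed to 712 FPKM in WT and 621 FPKM in the KO-labelled library, 12.8% less in the latter by this sum. Without Atp6v1g1 the sum was 359 and 371 FPKM, 3.27% more. The catalytic subunit gene Atp6v1a had 68.1 and 83.1 FPKM, a log2 fold change of 0.28, and its partner in the ATP-hydrolysing ring, Atp6v1b2, had 56.2 and 57.3 FPKM. Atp6v1c1, which joins the sectors and is involved in their reversible assembly, had 74.1 and 60.05 FPKM, a log2 fold change of -0.30. The regulatory subunit gene Atp6v1h had 47.5 and 54.1 FPKM. The remaining genes Atp6v1d, Atp6v1e1 and Atp6v1f differed by at most 20.4% between the libraries.

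Isoform use of the pump was the same in outline in both libraries. For subunit a, Tcirg1, which encodes the a3 isoform typical of osteoclasts and secretory lysosomes, had the highest level in both, at 37.2 and 35.3 FPKM. Atp6v0a1 came next, and Atp6v0a2 had 17.2 FPKM in WT and 19.9 FPKM in the KO-labelled library. The gap between Tcirg1 and Atp6v0a1 was smaller in the KO-labelled library, and with single libraries their order there is not secured. The kidney- and epididymis-type isoform genes Atp6v0a4, Atp6v0d2, Atp6v1b1, Atp6v1c2 and Atp6v1g3 were each below 0.1 FPKM in both libraries. Atp6v0e2, the alternative e subunit, had 4.25 FPKM in WT and 1.92 FPKM in the KO-labelled library, a log2 fold change of -0.85.

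**Figure D3:**
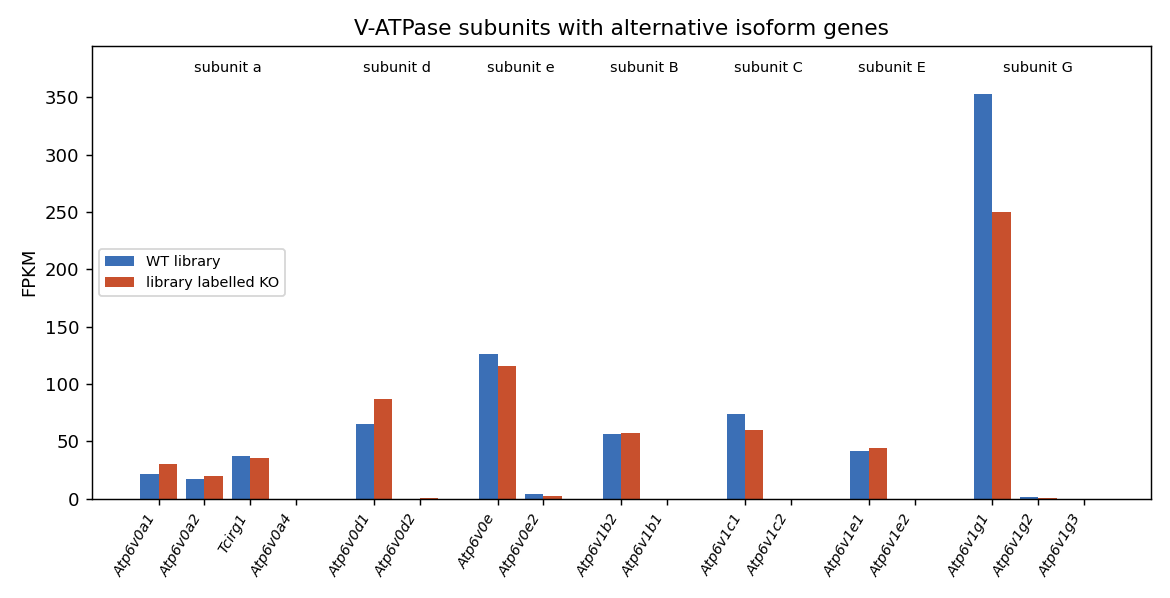
Level in FPKM, on a linear axis from 0, of V-ATPase subunits that have alternative isoform genes, with 1 bar per library and no error bars because each line has 1 library. Except for subunit a, a single gene supplies nearly all RNA of each subunit in both libraries, and Atp6v1g1 shows the widest gap, 353 against 250.3 FPKM.

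The 15 genes past the filter that held CACGTG near a start had 0.10 as their median log2 fold change, with 9 higher and 6 lower in the KO-labelled library. The 23 genes past the filter with a promoter sequence but without these letters had a median of 0.11, with 16 higher and 7 lower. For the 8 genes with the 8-letter form printed above, the median was -0.14, with 3 higher and 5 lower. For the 30 without it, the median was 0.15, with 22 higher and 8 lower. Of all genes past the filter, 50.7% were higher. The comparison thus gave near-equal medians for the core and a lower median for genes with the 8-letter form, and neither difference was tested. Absence of the letters from these windows says nothing of sites elsewhere. The RNA of the factors themselves was at 11.2 FPKM in WT and 7.98 FPKM in the KO-labelled library for Tfeb, a log2 fold change of -0.44. Tfe3 had the highest level of the 3 factors, at 43.6 and 48.9 FPKM, and Mitf was at 1.71 and 3.47 FPKM, a log2 fold change of 0.72. These are RNA levels, and the activity of TFEB and its relatives is set largely by where the protein is in the cell, which was not measured in these files.

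A further 130 lysosomal genes in 6 lists were read in the same way, of which 105 passed the filter. Of these, 65 were higher and 40 lower in the KO-labelled library, where 50.7% of all genes past the filter were higher. Their median log2 fold change was 0.10. More than 2-fold differences were found for 2 higher genes, Igf2r and Cpq, and 5 lower genes, Man2b1, Dnase2a, Naaa, Vps35 and Serpinb1a. As for the members, these are near the shares of 2.84% and 3.43% of all genes. The widest difference lay in delivery. Igf2r, the large receptor that carries hydrolases tagged with mannose 6-phosphate and also takes up IGF2, was at 0.059 FPKM in WT and 12.97 FPKM in the KO-labelled library. M6pr, the small receptor for the same tag, was at 80.3 FPKM in WT and 71.3 FPKM in the KO-labelled library, so that it had the higher level of the pair in both. Gnptab, a subunit of the enzyme that makes the tag, was at 12.9 and 20.1 FPKM. Over the 25 delivery genes past the filter the median log2 fold change was 0.12.

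Some other hydrolases differed more than any of the members past 5 FPKM. Cpq, a secreted and lysosomal carboxypeptidase, had 6.57 FPKM in WT and 17.5 FPKM in the KO-labelled library, a log2 fold change of 1.29. Of the hydrolases that were lower, Dnase2a, the acid DNase, had 41.8 and 10.4 FPKM, Man2b1, the alpha-mannosidase, had 12.9 and 3.34 FPKM, and Naaa, an acid amidase, had 8.49 and 2.39 FPKM. The saposin precursor gene Psap, the most abundant of this list, was at 492 FPKM in WT and 570.4 FPKM in the KO-labelled library. Over the 25 hydrolases and activators past the filter the median was 0.13 on the log2 scale.

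Genes listed as inhibitors of cathepsins were read as well, and whether the serpins among them inhibit any of the members was not examined. Cstb, the cytosolic inhibitor of cathepsins including L and B, had 388 FPKM in WT and 683 FPKM in the KO-labelled library, a log2 fold change of 0.81. Cst3, the secreted cystatin C, had 364 and 419.5 FPKM. Serpinb1a was lower, at 43.1 FPKM in WT and 18.1 FPKM in the KO-labelled library, a log2 fold change of -1.21, and Serpinb6a was at 524 and 323 FPKM. Of the 5 inhibitors past the filter, 2 were higher and 3 lower, where 50.7% of all genes past the filter were higher.

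**Figure D4:**
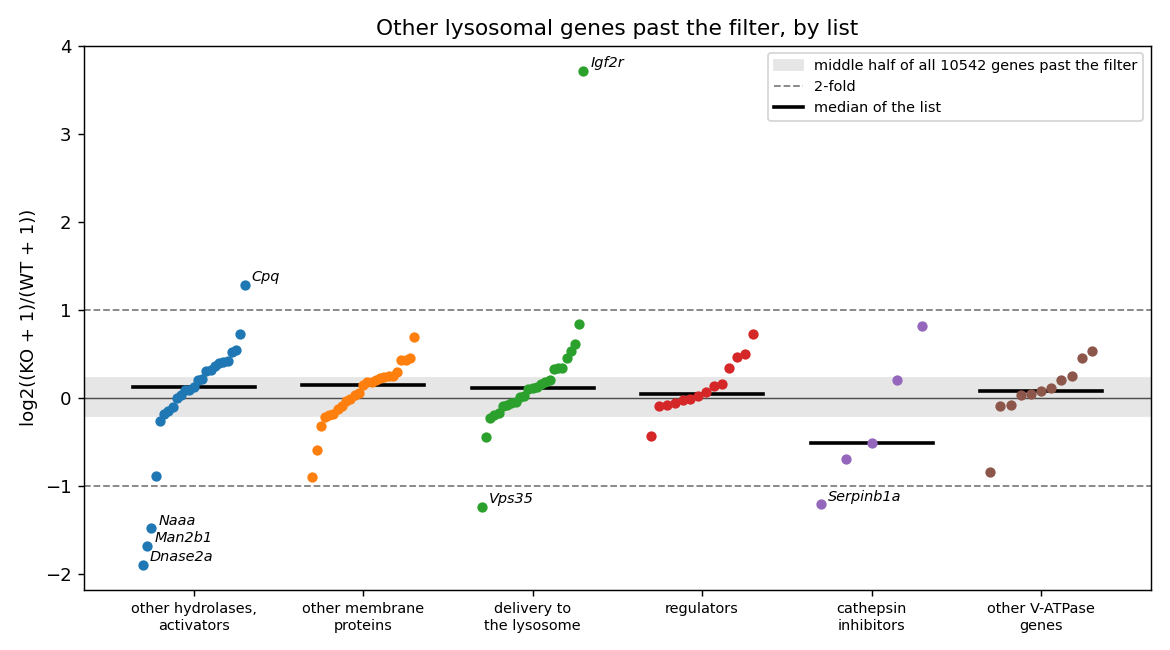
Log2 fold change of the 105 other lysosomal genes past the filter on the vertical axis, grouped by list, with a bar at each list's median, dashed lines at 2-fold and a grey band for the interquartile range of all genes past the filter. All lists but the 5 cathepsin inhibitors have medians between 0.05 and 0.15, and the labelled genes are the 7 beyond 2-fold.

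Of the other lysosomal genes beyond 2-fold, 3 lay among neighbours that were lower as well. For each gene, the median log2 fold change was taken over the other genes that passed and lay at most 5 Mb away. Man2b1, Dnase2a and Vps35 all lie on chromosome 8, where the 64 neighbours of each had medians of -1.46, -1.46 and -1.47. After these are subtracted, the log2 fold changes were -0.22 for Man2b1, -0.44 for Dnase2a and 0.24 for Vps35, so that none of the 3 remained beyond 2-fold. The neighbour median was 0.08 for Igf2r, -0.08 for Cpq, -0.10 for Naaa and -0.03 for Serpinb1a. Of the higher genes short of 2-fold, Cstb had a neighbour median of 0.39, which left 0.42, and Gnptab 0.36, which left 0.25. Among the 45 members past the filter, the same neighbour median ranged only from -0.32 to 0.23, and 1 member, Arsa on chromosome 15, had a value beyond 0.3 in either direction, at -0.32 beside its own log2 fold change of 0.09. The neighbour median had the sign of the member's own change in 23 of the 45. It was 0.04 for Ctsl on chromosome 13, 0.04 for Cln3 on chromosome 7 and 0.10 for Ctsh on chromosome 9. For Ctso on chromosome 3 it was 0.19, which left 0.99 and took it just below 2-fold, so that Ctsh and Cln3 remained, 1 member in each direction against 2.63% of all genes in each. For Lamp1 on chromosome 8 it was -0.17, which left 0.61, and for Cd63 on chromosome 10 it was 0.18, which left -0.03.

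**Figure D5:**
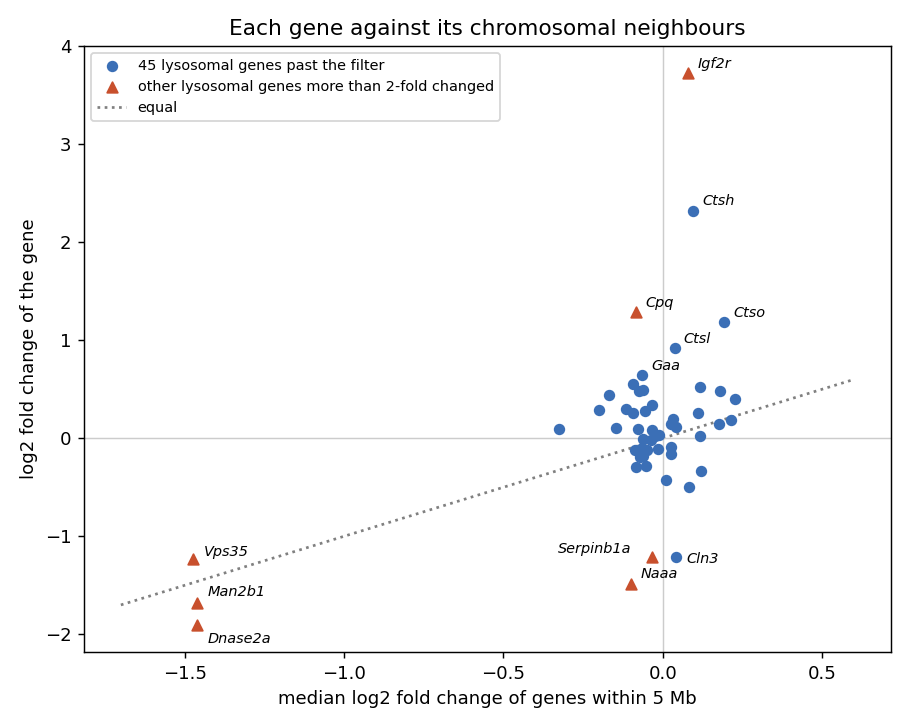
Log2 fold change of each gene on the vertical axis against the median log2 fold change of the genes within 5 Mb of it on the horizontal axis, with circles for the 45 members past the filter, triangles for the 7 other lysosomal genes beyond 2-fold and a dotted line where the 2 are equal. Vps35, Man2b1 and Dnase2a lie near the dotted line at about -1.5, whereas the members gather between -0.32 and 0.23 on the horizontal axis.

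Some markers of cell type differed widely between the libraries, by more than the summed level of the members did. The 9 myoblast markers summed to 278 FPKM in WT and 118 FPKM in the KO-labelled library. Of the 7 past the filter, 5 were lower and 2 higher, Myf5 and Vcam1, where 50.7% of all genes were higher. The 10 fibroblast markers summed to 757 and 1045 FPKM, with Col1a1 at 9.66 and 273 FPKM. Of the 6 past the filter, 4 were higher and 2 lower, where 50.7% of all genes were higher. Besides Col1a1, the higher ones were Col3a1, at 347 and 520 FPKM, Pdgfrb, at 54.5 and 80.2 FPKM, and Pdgfra, at 10.8 and 12.3 FPKM. The lower ones were Cd34, at 136 and 10.6 FPKM, and Ly6a, at 198 and 146 FPKM. Without Col1a1 the fibroblast list summed to 747 and 771 FPKM. Lum and Thy1 were listed at 0 in both libraries, and Pax7 was as well. The part of these shifts in the values of Ctsl, Ctsh, Ctso and Cln3 was not tested, and in bulk RNA fewer cells of a type and less RNA per cell cannot be told apart.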

How the data were processed

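The 2 C2C12 libraries were grouped as WT and KO by their sample titles, with 1 library each. The authors deposited 1 value per gene symbol, with no unit named, taken here as FPKM from decimals and column totals of 568543 and 574253. TPM over part of the genes would look alike. Per the submitters' processing notes, Trim Galore 0.6.6, STAR 2.7.9a and RSEM 1.3.3 were used. The build is GRCm39 in the study's methods and GRCm38 in the notes. The library kit in the methods also differs from that in the labels. Neither intervals nor a count model could be used, since read numbers are unknown.

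For the 24 repeated symbols among 21853 rows, the entry of higher mean expression was used. Positions for 10171 of 10542 filtered genes came from GENCODE vM39 (GRCm39). RefSeq promoter sequences are on GRCm38.p6. The procedure was tested on simulated data. The members and the lists were chosen with earlier results of these data known. Full values were due for members beyond 2-fold, the 10 widest differences in each direction and the 10 highest levels, and in the other lists for genes beyond 2-fold, Gne, Tfeb, Tfe3 and Mitf. Other genes were named after their values were seen. A gene of the other lists is not reported here and was left out of their counts and medians. Alternatives were pseudocounts of 0.1 and 5, scaling by the median of ratios or to equal totals, omission of the filter, a minimum mean of 5 FPKM and subtraction of the neighbour median. Analyses ran in Python 3.11.15 with pandas 2.3.3 and numpy 2.4.6, and figures were drawn with matplotlib 3.10.9.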

Additional observations from a re-analysis of the deposited data

How the results depend on the processing

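Of the counts of 2 higher and 1 lower genes beyond 2-fold, both became 0 with a pseudocount of 5, against 102 and 176 genes in all, and both became 0 with a mean of at least 5 FPKM (145 and 221 genes in all), because Ctsh, Ctso and Cln3 then no longer pass the filter. Subtraction of the neighbour median left 1 higher gene, Ctsh, and 1 lower gene, Cln3. The median of the members, 0.10, lay between 0.09 and 0.12. The number of higher members, 29 of 45, became 25 of 39 when a mean of 5 FPKM was required and 31 of 49 without a filter. Of all genes, 50.7% and 33.6% were higher in those 2 settings. Subtraction of the neighbour median gave 28 of 45, against 49.9% of all genes. The cysteine protease median of 0.54 includes Ctsh and Ctso, which passed the filter only through the KO-labelled library. This median became 0.30 with a pseudocount of 5, 0.19 when no filter was applied and 0.09 when a mean of 5 FPKM was required. The glycosidase median lay between 0.11 and 0.32. Subtraction of the neighbour median turned the sign of 5 values, to 0.02 for the other proteases, 0.16 for the sulfatases with lipase, -0.03 for Cd63, 0.05 for Atp6v0b and 0.02 for Npc2. The log2 fold change of Ctsh ranged from 0.85 to 5.36, of Cln3 from -1.49 to -0.68, of Ctso from 0.46 to 1.90 and of Ctsl from 0.88 to 0.93. A median was taken as moved outside its order-statistic interval, which for small groups spans nearly all members, and a gene or a sum beyond the interquartile range of all genes, 0.44. No paired analysis was possible because no result comes from a test and each line has 1 library. A replicate could not be left out, and the alternative normalization planned for counts was not run because the values were FPKM.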
